A study of Mus musculus with 15 samples.

Results

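RNA polymerases I, II and III transcribe the nuclear genome, and the genes described here encode their subunits. They were chosen by symbol, as every mouse gene named Polr1, Polr2 or Polr3 with a subunit letter, plus Znrd1, Twistnb and Cd3eap, with 10 or more reads in at least 3 of the 15 count tables. All 31 genes with such a name met the read rule, out of 50554 genes in the tables. The Polr1 group held 8 genes, the Polr2 group 13 and the Polr3 group 10. All 31 also passed the filter on low counts that left 20865 genes to be tested, and the member with the fewest reads in any library, Polr3g, had 20.

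RNA was sequenced from BMDCs, dendritic cells (which present antigen to T cells) raised in culture out of bone marrow with GM-CSF. The donors were mice that carried a tamoxifen-inducible Cre recombinase (CreERT2) and had all been given tamoxifen. Recombination left Δ/+ cells with 1 wild-type allele of Mysm1, which encodes a histone H2A deubiquitinase, and Δ/DN cells with 1 allele for a catalytically inactive MYSM1. The cells were harvested over 12 weeks past tamoxifen, kept in culture for 9 days, and then held for 18 h unstimulated (US) or with 10 ng/mL lipopolysaccharide (LPS), a component of the outer membrane of Gram-negative bacteria. There were 4 Δ/+ US, 4 Δ/DN US, 3 Δ/+ LPS and 4 Δ/DN LPS libraries. Cre was carried through the whole animal, and neither the age and strain of the mice nor the efficiency of recombination was given in the sources used here.

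RNA polymerase I makes the large ribosomal RNA precursor in the nucleolus, RNA polymerase II makes messenger RNA and many small nuclear RNAs, and RNA polymerase III makes transfer RNA, 5S ribosomal RNA and other short RNAs. Each enzyme is built on a pair of large catalytic subunits (Polr1a with Polr1b, Polr2a with Polr2b, Polr3a with Polr3b). Polr2e, Polr2f, Polr2h, Polr2k and Polr2l are shared by all 3 enzymes, and Polr1c and Polr1d by polymerases I and III. Polymerase III is also known as a cytosolic sensor that transcribes AT-rich DNA, which feeds the RIG-I pathway in innate immune cells.

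Reads counted on genes summed to 37256651 to 104041282 per library, of which 0.0561 to 0.108% fell on the 31 genes. The letters that stand for the mice are tied to 1 genotype in the series text and to the other in the sample names. The samples' own labels are followed here, and if the series text holds instead, all genotype directions reverse. Mysm1 itself was at 46.3 to 54.1 CPM in Δ/+ US and 28.1 to 49.0 CPM in Δ/DN US libraries (log2 difference -0.28 ± 0.14, adjusted p = 0.213), and total reads cannot tell the wild-type from the inactive allele. The US library of Δ/DN culture 3 stood apart with 10.4% of its reads on 7SL RNA, against 3.41 to 5.66% in the other US libraries. The names of the libraries carry a 2 or a 3, of unstated meaning, called set 2 and set 3 below, and Δ/+ has 1 library in set 3, Δ/+ US 4. Summed dendritic cell markers lay at 5473 to 14136 CPM in every library, and summed macrophage markers at 1828 to 2786 CPM. Of 8 T and NK cell markers 7 stayed under 1 CPM in every library. Among these 7 was the T cell receptor gene Trac, with 0 reads in each library. The 8 markers together summed to 87.2 to 315 CPM. Whether cultures came from different mice was not stated, so p-values refer to the spread between cultures at most.

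Levels are given as CPM, a gene's reads relative to the total of its library, scaled by TMM, a method that sets the bulk of genes equal between libraries. Differences are log2 fold changes ± standard error (SE) from edgeR's quasi-likelihood test, and a gene was called, and is said to rise or fall, when its Benjamini-Hochberg adjusted p over all 20865 genes was under 0.05. In bulk RNA, a smaller share of cells that express a gene and less RNA per cell cannot be told apart. Levels of different genes were compared only per kilobase (RPKM), and only where the deposited gene length and the longest annotated messenger RNA gave the same order, because the deposited length was 0.407 to 11.1 times the messenger RNA length and over 2 times for 11 of the 31 genes. In Δ/+ US libraries the largest subunit of polymerase II, Polr2a, lay at 28.1 RPKM, above those of polymerase I, Polr1a (7.84), and polymerase III, Polr3a (6.43), on the messenger RNA length, and at 28.1, 6.60 and 3.96 RPKM on the deposited length. Polr3g and its paralogue Polr3gl changed order with the length used and are not ranked.

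Stretches upstream of Polr3e, Polr1a and Polr1b are shown, since of the members called between genotypes without LPS they had the smallest p. The Polr3e and Polr1b stretches were cut short of the start to leave out annotated exons of messenger RNA. They are plus-strand sequences from RefSeq on GRCm38.p6, read 5′ to 3′ toward the transcription start. Polr3e lies at chr7:120917528-120917743, Polr1a at chr6:71908803-71909052 and Polr1b at chr2:129100746-129100994, and they end 35, 1 and 2 bases before the annotated start. Capitals mark matches to GGGCGG, the GC box, and in Polr3e also the first 71 bases shown, which are part of a leucine transfer RNA gene, n-TLaag4, in the RefSeq annotation.
Polr3e: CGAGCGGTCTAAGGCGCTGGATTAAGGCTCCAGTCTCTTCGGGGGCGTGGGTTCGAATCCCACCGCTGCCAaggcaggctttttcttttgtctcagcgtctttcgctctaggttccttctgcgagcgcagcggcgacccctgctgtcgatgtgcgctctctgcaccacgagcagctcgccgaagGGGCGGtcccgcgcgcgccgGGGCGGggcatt
Polr1a: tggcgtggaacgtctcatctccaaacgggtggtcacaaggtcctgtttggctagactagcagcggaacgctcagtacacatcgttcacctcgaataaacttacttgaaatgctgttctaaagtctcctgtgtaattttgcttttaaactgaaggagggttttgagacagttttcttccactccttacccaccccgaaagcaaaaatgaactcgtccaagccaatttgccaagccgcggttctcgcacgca
Polr1b: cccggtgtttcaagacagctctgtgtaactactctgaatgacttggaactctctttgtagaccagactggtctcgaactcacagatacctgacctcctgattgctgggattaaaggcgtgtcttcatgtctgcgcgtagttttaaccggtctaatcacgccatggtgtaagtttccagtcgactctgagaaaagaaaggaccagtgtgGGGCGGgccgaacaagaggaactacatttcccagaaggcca
The 3 stretches differ in base composition, with 65.3% G and C in Polr3e, 47.6% in Polr1a and 49.4% in Polr1b. Polr3e holds 2 GC boxes, at 66 to 61 and 46 to 41 bases before the start, Polr1b holds 1 at 42 to 37, and Polr1a holds 0. Transfer RNA genes are transcribed by polymerase III, so a gene for a subunit of that enzyme lies downstream of one of its templates. Whether any reads of the transfer RNA enter the count of Polr3e was not tested.

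Of the 31 members, 25 had a promoter in the RefSeq table, taken as the 250 bases before the start and searched on both strands. GGGCGG was in 14 of these 25, against 32.9% of all 27025 promoters, with 3 of 8 in the Polr1 group, 8 of 10 in Polr2 and 3 of 7 in Polr3. CCGGAAG, of the ETS type, was in 6 of 25 (7.05% of all promoters), CACGTG, the E-box, in 3 (6.05%), among them Cd3eap and Polr3c, GCATGCG, of the NRF1 type, in 2 (3.07%), TATAAA in 2 (13.0%) and GATTGG, the CCAAT box, in 3 (15.1%). GAAANNGAA, of the interferon response type, was in 0 of 25 (7.16%). Median G and C content was 59.6% in the members and 52.0% in all promoters, and GC box counts were not corrected for it.

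LPS moved the subunit genes unevenly within each enzyme. In Δ/+ cultures 19 of the 31 genes were called, 16 lower and 3 higher, where 47.7% of all genes tested were called, 25.3% lower and 22.4% higher. In Δ/DN cultures the same 19 genes were called in the same directions, where 48.2% of all genes were called, 25.1% lower and 23.1% higher. The comparisons share no library but do share the model's estimate of spread. They also share its term for library set, which draws on libraries of both genotypes. The median log2 difference of the 31 genes was -0.31 in Δ/+ and -0.35 in Δ/DN, against -0.08 and -0.09 for all genes tested. All directions with LPS are relative to the bulk of genes, since TMM factors lay between 1.04 and 1.33 in US and between 0.734 and 0.940 in LPS libraries. With library totals in place of TMM, a scaling chosen after these factors were seen, the median of all genes fell by 0.73 in Δ/+ and 0.67 in Δ/DN on the log2 scale. On that scale 27 members were called lower and 0 higher in Δ/+, and 28 lower and 1 higher in Δ/DN, while over all genes 2317 were called higher and 11211 lower in Δ/+, against 4664 and 5287 with TMM, and 2361 and 11185 in Δ/DN, against 4824 and 5228.

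**Figure D1:**
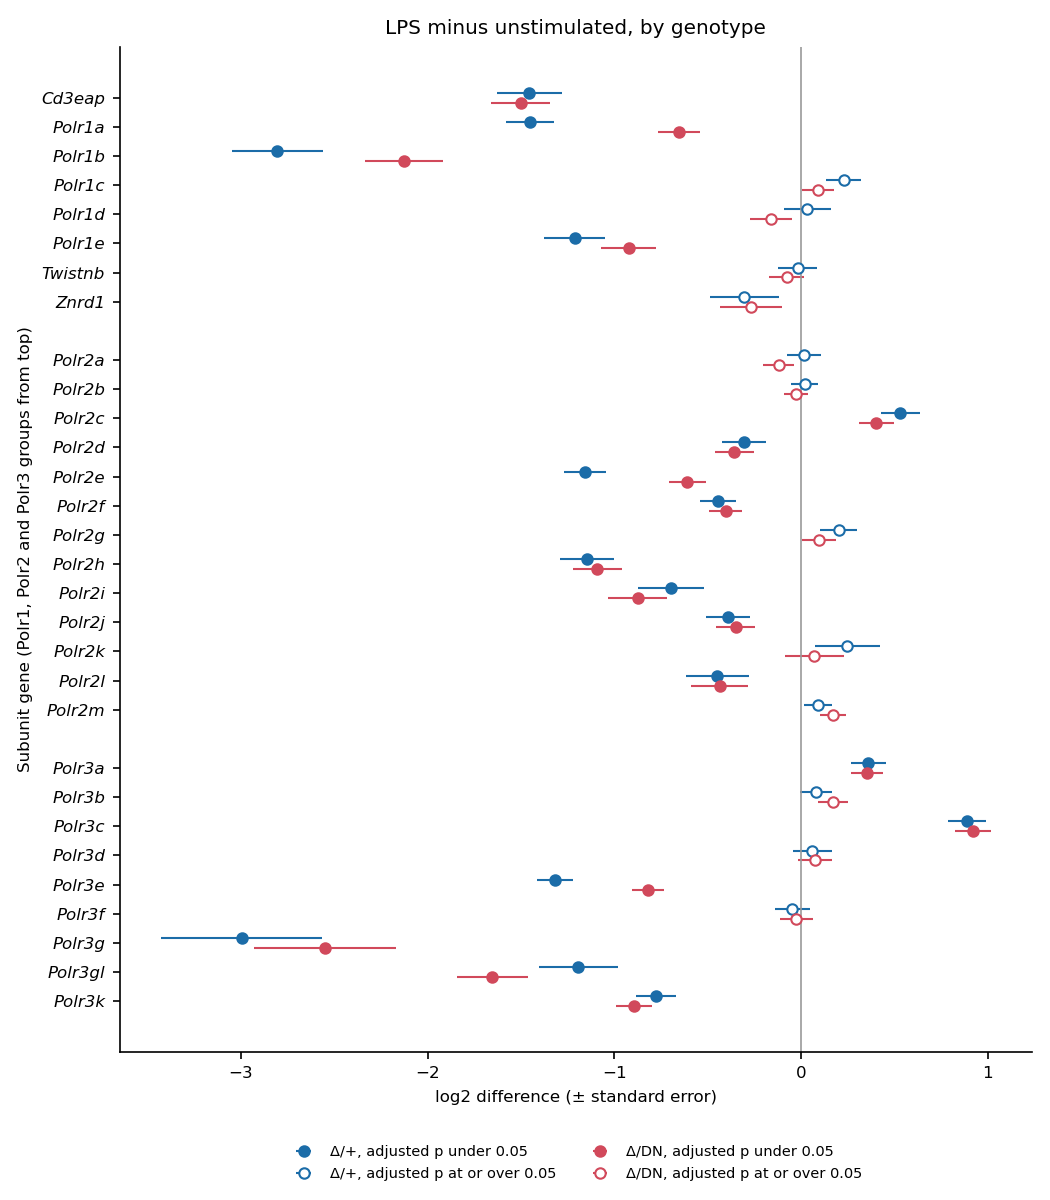
Log2 difference of LPS from unstimulated libraries (x axis, ± standard error) for the subunit genes named on the y axis, in Δ/+ (blue) and Δ/DN (red); filled points have an adjusted p under 0.05. Polr3g and Polr1b lie farthest to the left in both genotypes, and Polr2a and Polr2b have open points near the line of no difference.

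In the Polr1 group 4 of 8 genes fell with LPS in each genotype and 0 rose, with a median of -0.76 in Δ/+ and -0.46 in Δ/DN. Polr1a, the largest catalytic subunit of polymerase I, was at 62.6, 77.1, 76.0 and 73.2 CPM in the Δ/+ US libraries and at 22.5, 24.8 and 32.0 CPM with LPS. In Δ/DN it was at 49.0, 45.4, 41.7 and 49.1 CPM without and 28.2, 30.5, 26.7 and 32.2 CPM with LPS. The LPS libraries lay below the US libraries of their genotype without overlap. The log2 difference was -1.45 ± 0.13 in Δ/+ (adjusted p = 3.87e-07) against -0.66 ± 0.11 in Δ/DN (adjusted p = 0.000201).

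Polr1b, the second-largest subunit, which completes the active centre, was at 27.9, 33.6, 31.0 and 42.6 CPM in Δ/+ US and at 5.06, 5.05 and 3.44 CPM in Δ/+ LPS libraries. In Δ/DN the US values were 18.2, 20.1, 19.7 and 20.7 CPM and the LPS values 2.74, 4.78, 3.75 and 6.98 CPM. Every LPS library lay below every US library, with log2 differences of -2.81 ± 0.24 in Δ/+ (adjusted p = 4.28e-07) against -2.13 ± 0.21 in Δ/DN (adjusted p = 1.57e-06). This was the largest fall in the Polr1 group in each genotype.

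Cd3eap and Polr1e encode the PAF49 and PAF53 proteins, a heterodimer that polymerase I carries for initiation. Cd3eap was at 9.27, 10.9, 11.0 and 15.6 CPM in Δ/+ US and 3.84, 4.29 and 3.90 CPM in Δ/+ LPS libraries. The Δ/DN libraries gave 8.91, 9.03, 9.09 and 9.79 CPM without and 3.70, 2.19, 3.36 and 3.85 CPM with LPS. Its log2 level fell by 1.46 with LPS in Δ/+ cultures (adjusted p = 7.67e-06), and in Δ/DN cultures it fell by 1.502 (adjusted p = 2.14e-06), again with no overlap. Its exons overlap the oppositely oriented DNA repair gene Ercc1, which had a log2 difference of -0.11 ± 0.15 in Δ/+ and -0.09 ± 0.14 in Δ/DN (neither called), and the use of strand in counting was not stated. Polr1e fell by 1.21 and 0.92 in Δ/+ and Δ/DN.

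The other 4 genes of the group were not called with LPS in either genotype. They are Twistnb, the stalk subunit (-0.02 ± 0.10 in Δ/+ and -0.08 ± 0.09 in Δ/DN), Znrd1, which acts in RNA cleavage (-0.30 ± 0.19 and -0.27 ± 0.17), and Polr1c (0.23 ± 0.09 and 0.09 ± 0.09) and Polr1d (0.03 ± 0.13 and -0.16 ± 0.11), which polymerase III also uses. Twistnb was at 19.0, 22.4, 22.4 and 29.4 CPM in Δ/+ US and 22.3, 23.8 and 19.5 CPM in Δ/+ LPS libraries, with overlapping groups. Of the 6 genes used by polymerase I alone, 4 fell, and of the 2 shared with polymerase III, 0 did.

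In the Polr2 group 7 of 13 genes fell and 1 rose in each genotype, and neither gene of the catalytic pair was called. Polr2a, whose C-terminal repeats couple transcription to RNA processing, was at 197, 183, 189 and 189 CPM in Δ/+ US and 201, 179.8 and 202 CPM in Δ/+ LPS libraries. In Δ/DN it was at 199, 212, 168 and 192 CPM without and 179, 179, 189 and 161 CPM with LPS. The groups overlapped in each genotype, and the log2 difference was 0.01 (95% interval -0.17 to 0.19) in Δ/+ and -0.12 (-0.28 to 0.04) in Δ/DN. Polr2b, the second-largest subunit, ranged from 48.6 to 53.2 CPM in Δ/+ US, 50.6 to 52.3 in Δ/+ LPS, 47.1 to 53.2 in Δ/DN US and 47.7 to 51.1 CPM in Δ/DN LPS libraries. Its differences were 0.02 (-0.12 to 0.16) and -0.03 (-0.15 to 0.10). With library totals Polr2a and Polr2b instead fell by 0.64 and 0.63 in Δ/+, close to the shift of all genes on that scale.

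Of the 5 subunits shared by all 3 enzymes, 4 fell in each genotype. Polr2e was at 30.2, 30.7, 34.4 and 34.7 CPM in Δ/+ US and 15.2, 14.5 and 14.1 CPM in Δ/+ LPS libraries. The Δ/DN libraries held 29.2, 30.7, 28.8 and 28.3 CPM without and 17.6, 21.6, 16.1 and 21.4 CPM with LPS. No LPS library reached a US library, and the log2 difference was -1.16 ± 0.11 in Δ/+ (adjusted p = 9.41e-07) against -0.61 ± 0.10 in Δ/DN (adjusted p = 0.000123).

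Polr2h was at 9.99, 8.88, 9.57 and 11.5 CPM in Δ/+ US and 4.19, 4.59 and 4.10 CPM in Δ/+ LPS libraries. Its Δ/DN values were 8.62, 7.89, 10.9 and 7.73 CPM without and 3.42, 3.86, 4.13 and 5.17 CPM with LPS. The log2 difference was -1.15 ± 0.14 in Δ/+ (adjusted p = 1.15e-05) against -1.09 ± 0.13 in Δ/DN (adjusted p = 6.93e-06), with no overlap. Polr2h exons overlap the oppositely oriented chloride channel gene Clcn2, at -0.04 ± 0.35 in Δ/+. The shared subunits Polr2f (-0.45 in Δ/+ and -0.40 in Δ/DN) and Polr2l (-0.45 and -0.44) fell less, and Polr2k was not called (0.25 ± 0.17 and 0.07 ± 0.16).

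Among the 8 genes used by polymerase II alone, 3 fell and 1 rose. Polr2c, which forms the assembly platform with Polr2j, rose by 0.53 ± 0.10 in Δ/+ (adjusted p = 0.000558) against 0.40 ± 0.09 in Δ/DN (adjusted p = 0.0024). With library totals it was at -0.12 and -0.17, neither called. Polr2i, which acts in proofreading, fell by 0.70 and 0.88. Its exons overlap the oppositely oriented gene Tbcb, which was not called with LPS (0.04 ± 0.12 and 0.09 ± 0.11). Tbcb was at 23.6 to 38.6 CPM over all libraries, and Polr2i at 2.84 to 7.44 CPM. Exons of 11 of the 31 members overlap a gene on the other strand. Polr2j fell by 0.39 and 0.35, and its exons overlap Lrwd1 on the other strand, which fell by 1.06 in Δ/+ and 0.87 in Δ/DN; how reads were shared between them was not tested. Polr2d, of the stalk, had the weakest calls (-0.31 and -0.36, adjusted p = 0.0414 and 0.0108), and its stalk partner Polr2g (0.20 ± 0.10 and 0.10 ± 0.09) and the regulatory subunit Polr2m (0.09 ± 0.08 and 0.17 ± 0.07) were not called. In Δ/+ the call of Polr2d held in 3 of 15 refits that each left out 1 library, that of Polr2l in 7 and that of Polr2j in 13.

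**Figure D2:**
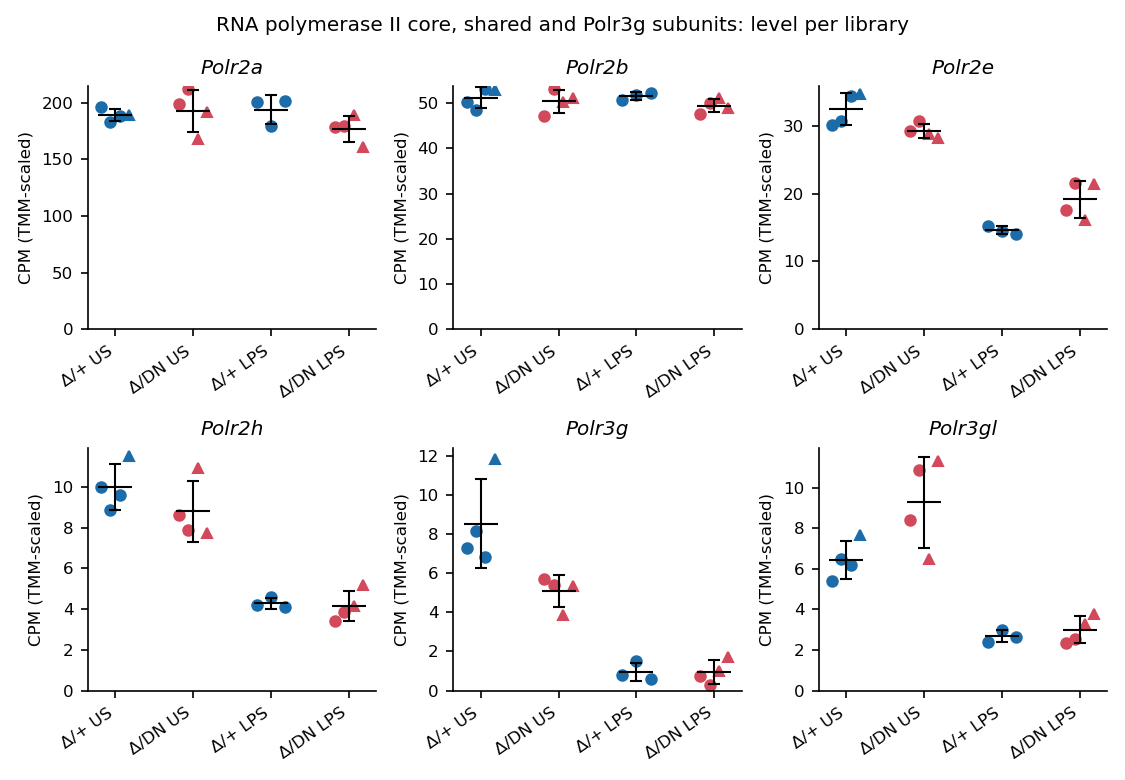
Level per library (y axis, TMM-scaled CPM) of 6 subunit genes in the 4 groups (x axis), with circles for library set 2, triangles for set 3, blue for Δ/+ and red for Δ/DN, and the bar giving the mean ± SD. Polr2a and Polr2b overlap across the groups, while Polr2e, Polr2h, Polr3g and Polr3gl are lower in every LPS library than in every US library of the same genotype.

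In the Polr3 group 5 of 10 genes fell and 2 rose in each genotype, with medians of -0.41 in Δ/+ and -0.42 in Δ/DN. Neither gene of the catalytic pair was called lower. Polr3a, the largest subunit, was at 28.5, 31.1, 28.8 and 32.2 CPM in Δ/+ US and 38.1, 38.9 and 38.6 CPM in Δ/+ LPS libraries. In Δ/DN it was at 27.9, 27.2, 23.7 and 31.6 CPM without and 37.0, 34.1, 36.4 and 33.2 CPM with LPS. LPS libraries lay above US libraries without overlap, and Polr3a rose by 0.36 ± 0.09 in Δ/+ (adjusted p = 0.00548) against 0.35 ± 0.09 in Δ/DN (adjusted p = 0.00347). With library totals it was at -0.29 and -0.25, neither called. Polr3b, its partner, was at 24.9 to 28.3 CPM in Δ/+ US and 25.6 to 30.7 CPM in Δ/+ LPS libraries, and at 24.0 to 26.6 and 27.3 to 30.1 CPM in Δ/DN, and was not called (0.08 ± 0.09 and 0.17 ± 0.08).

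Polr3c, Polr3f and 1 of the paralogues Polr3g and Polr3gl form a trimer that polymerase III needs to initiate, and its parts moved in opposite directions. Polr3c was at 42.8, 38.0, 43.6 and 30.8 CPM in Δ/+ US and 75.2, 67.3 and 79.5 CPM in Δ/+ LPS libraries. Δ/DN libraries gave 46.9, 51.6, 45.0 and 46.3 CPM without and 98.0, 89.4, 94.6 and 77.4 CPM with LPS. It rose by 0.89 ± 0.10 in Δ/+ (adjusted p = 4.86e-06) against 0.92 ± 0.09 in Δ/DN (adjusted p = 1.83e-06), with no overlap. With library totals it was at 0.23 (adjusted p = 0.0924) and 0.33 (adjusted p = 0.0128), so that the call in Δ/+ was lost. The deposited length of Polr3c is 5.42 times that of its longest annotated messenger RNA, so the counted region takes in more than that RNA. This ratio is over 2 for 11 of the 31 genes, among them Polr3e (10.9), Polr3gl (11.1) and Polr1b (3.68). Polr3f was not called (-0.05 ± 0.10 and -0.03 ± 0.09).

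Polr3g, the paralogue linked to stem cells and growth, was at 7.31, 8.15, 6.83 and 11.8 CPM in Δ/+ US and 0.777, 1.499 and 0.602 CPM in Δ/+ LPS libraries. In Δ/DN it was at 5.69, 5.41, 3.89 and 5.35 CPM without and 0.734, 0.296, 1.02 and 1.72 CPM with LPS. These were the largest falls of the 31 genes in each genotype, at -3.00 ± 0.43 in Δ/+ (adjusted p = 5.09e-05) against -2.55 ± 0.38 in Δ/DN (adjusted p = 7.54e-05). Polr3gl, the paralogue of broad expression, fell too. It went from 5.41, 6.48, 6.18 and 7.68 CPM to 2.41, 3.00 and 2.66 CPM in Δ/+, and from 8.39, 10.9, 6.50 and 11.3 CPM to 2.34, 2.56, 3.29 and 3.79 CPM in Δ/DN. The log2 differences of Polr3gl were -1.19 ± 0.21 (adjusted p = 0.000254) and -1.65 ± 0.19 (adjusted p = 5.21e-06), and neither paralogue's LPS libraries overlapped its US libraries. Both paralogues thus fell in both genotypes.

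Polr3d and Polr3e form a heterodimer used in initiation and termination. Polr3e was at 35.8, 35.04, 32.1 and 35.4 CPM in Δ/+ US and 14.0, 13.6 and 13.8 CPM in Δ/+ LPS libraries. Its Δ/DN levels were 25.6, 22.9, 24.4 and 26.9 CPM without and 13.8, 14.7, 12.5 and 15.5 CPM with LPS. The log2 difference was -1.32 ± 0.09 in Δ/+ (adjusted p = 6.56e-08) against -0.82 ± 0.08 in Δ/DN (adjusted p = 1.85e-06). With LPS the genotypes overlapped, and without it they did not. Polr3d was not called with LPS (0.06 ± 0.10 and 0.07 ± 0.09). Polr3k, which acts in RNA cleavage, fell by 0.78 and 0.90.

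Leaving out 1 library at a time gave 16 to 20 members called with LPS in Δ/+ and 19 in Δ/DN throughout. Within set 3 alone, with 2 Δ/DN libraries for each treatment, Polr1b, Cd3eap and Polr3c were called, while within set 2 alone 19 of the 31 genes were called in Δ/+ and 16 in Δ/DN. Proliferation markers moved with LPS as well: 8 of 16 fell and 2 rose in Δ/+, and 11 fell in Δ/DN, with sums of 500.3 to 742 CPM in Δ/+ US, 499 to 583 in Δ/+ LPS, 807 to 1351 in Δ/DN US and 676 to 1075 CPM in Δ/DN LPS libraries. Their part in the fall of the subunit genes was not tested.

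Between genotypes without LPS, the comparison asked how resting cells with inactive MYSM1 differed. In libraries labelled Δ/DN 6 members were lower and 1 higher, 7 of 31, where 10.5% of all genes tested were called, 5.45% lower and 5.01% higher. The called genes belonged to polymerases I and III. In the Polr1 group 4 of 8 fell (median -0.38), in the Polr3 group 2 of 10 fell and 1 rose (median -0.20), and in the Polr2 group 0 of 13 were called (median -0.03, with 2 genes at an unadjusted p under 0.05), while the median of all genes was 0.01. By DESeq2's Wald test 8 members were lower and 1 higher, Polr2d among them.

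Polr1a was lower in Δ/DN at 46.3 ± 3.49 CPM (SD, n = 4) than in Δ/+ at 72.2 ± 6.64 CPM (n = 4), and the highest Δ/DN library (49.1) lay below the lowest Δ/+ library (62.6). The log2 difference was -0.64 ± 0.11 (adjusted p = 0.00749). Polr1a was the only called member whose call held under every alternative run, each library left out in turn included, with -0.63 in set 2 alone, -0.62 without Δ/DN culture 3 and -0.56 with library totals. Polr1b was at 33.8 ± 6.35 in Δ/+ and 19.7 ± 1.08 CPM in Δ/DN, also without overlap (-0.85 ± 0.20, adjusted p = 0.0206). Twistnb (-0.35 ± 0.09, adjusted p = 0.0335) and Polr1e (-0.53 ± 0.15, adjusted p = 0.0345) fell with overlapping groups. Twistnb was at 17.7, 18.6, 20.4 and 19.0 CPM in Δ/DN US, against 19.0 to 29.4 CPM in Δ/+ US libraries.

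Polr3e was lower in Δ/DN at 25.0 ± 1.71 CPM than in Δ/+ at 34.6 ± 1.69 CPM (n = 4 each), with the highest Δ/DN library at 26.9 and the lowest Δ/+ library at 32.1 CPM. The log2 difference was -0.48 ± 0.09 (adjusted p = 0.00746), and without Δ/+ US 4 it was -0.49 with adjusted p = 0.0528. Its partner Polr3d was at 14.5, 16.2, 16.2 and 21.1 CPM in Δ/+ and 12.2, 11.0, 17.4 and 14.7 CPM in Δ/DN, with overlap (-0.40 ± 0.10, adjusted p = 0.0207). Polr3c was higher in each Δ/DN library (45.0 to 51.6 CPM) than in each Δ/+ library (30.8 to 43.6), a log2 difference of 0.35 ± 0.10 (adjusted p = 0.0361).

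The paralogues Polr3g and Polr3gl lay on opposite sides without a call. Polr3g was below Δ/+ in every Δ/DN library (3.89 to 5.69 against 6.83 to 11.8 CPM; -0.80 ± 0.35, adjusted p = 0.155), and Polr3gl was at 6.50 to 11.3 CPM in Δ/DN against 5.41 to 7.68 CPM in Δ/+ (0.48 ± 0.18, adjusted p = 0.11). The catalytic pair of polymerase II gave log2 differences of 0.04 (95% interval -0.12 to 0.21) for Polr2a and -0.03 (-0.16 to 0.10) for Polr2b. That of polymerase III gave -0.13 (-0.31 to 0.04) for Polr3a and -0.08 (-0.24 to 0.08) for Polr3b.

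The count of 7 moved with single libraries. It was 1 without Δ/+ US 4, the only Δ/+ library of set 3, and 2 without Δ/+ US 2, Δ/DN US 2 or Δ/DN US 4. It was 9 without Δ/DN US 3 or without both libraries of that culture. The 2184 calls over all genes moved too, to 174 without Δ/+ US 4 and 549 without Δ/+ US 2. They were 350 without Δ/DN US 2, 882 without Δ/DN US 4 and 3403 without Δ/DN US 3. Within set 2 alone Polr1a, Polr3d and Polr3e were lower and Polr3c was at 0.23 (adjusted p = 0.219), and with library totals Polr1a was lower and Polr3c higher and no other member was called. Proliferation markers differed between the same libraries, with 13 of 16 higher and 0 lower in Δ/DN US, and 1 of 11 neutrophil markers higher, with sums of 90.1 to 959.7 CPM in Δ/DN US against 53.0 to 122 CPM in Δ/+ US libraries. Of 10 macrophage markers 4 were higher and 1 lower, with sums of 2271 to 2717 against 1937 to 2105 CPM, and of 14 conventional dendritic cell markers 4 were higher and 0 lower, with sums of 5473 to 8522 against 5629 to 7476 CPM. Of 8 stromal and endothelial markers 2 were higher and 2 lower, with sums of 15.9 to 27.2 against 34.5 to 52.4 CPM. Their part in the genotype differences was not tested.

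**Figure D3:**
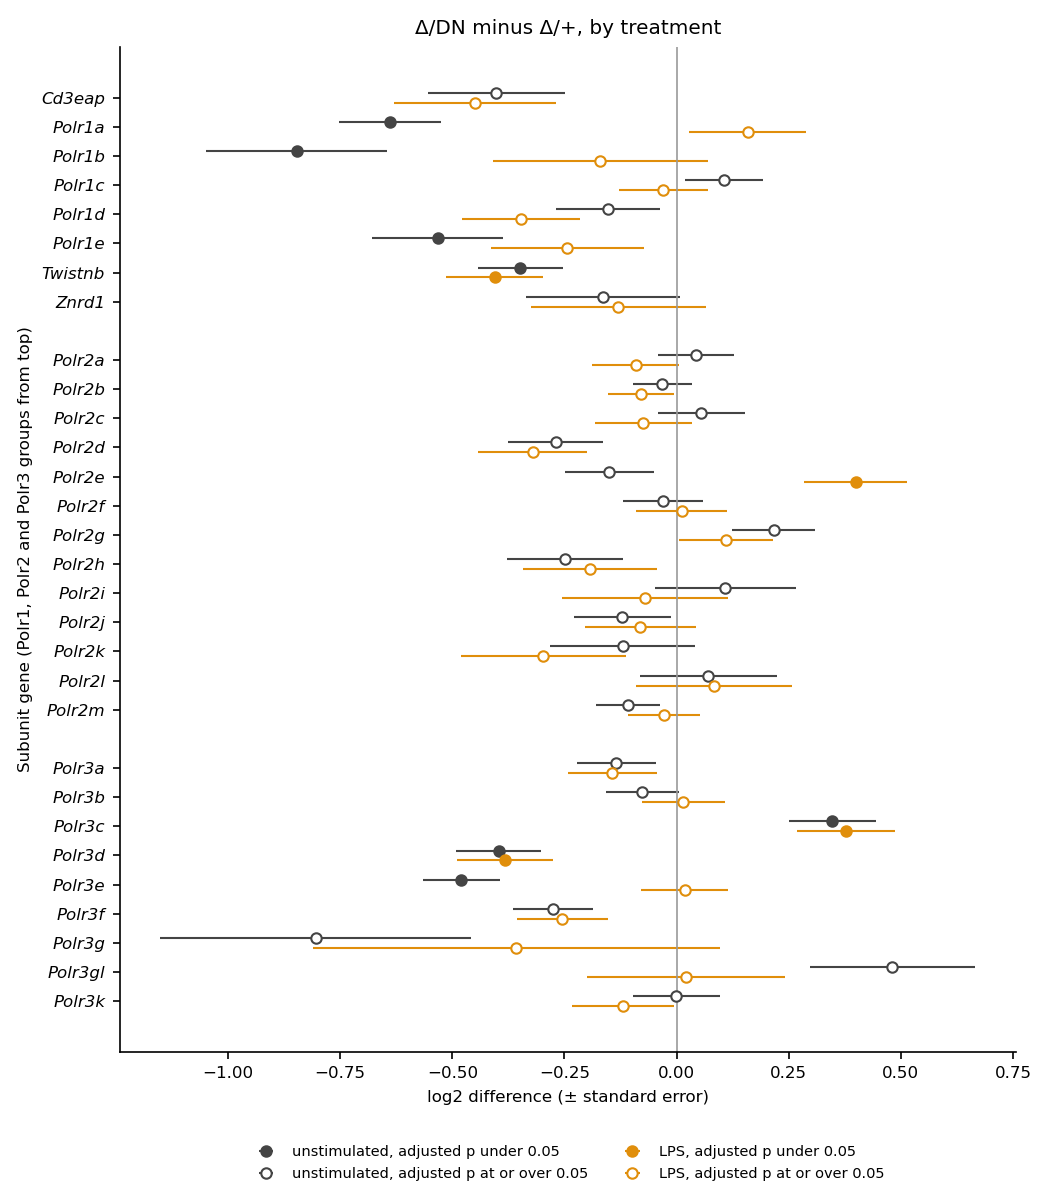
Log2 difference of Δ/DN from Δ/+ libraries as labelled (x axis, ± standard error) for the subunit genes named on the y axis, unstimulated (grey) and with LPS (orange); filled points have an adjusted p under 0.05. Unstimulated, the filled points are Polr1a, Polr1b, Polr1e, Twistnb, Polr3d and Polr3e to the left and Polr3c to the right, and no Polr2 gene is filled.

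With LPS, 4 of the 31 members were called between genotypes, 2 lower and 2 higher in Δ/DN, where 8.6% of all genes tested were called, 3.23% lower and 5.37% higher. All 3 Δ/+ LPS libraries are of set 2, while 2 of the 4 Δ/DN LPS libraries are of set 3. The model's term for library set, estimated in part from US libraries, therefore enters these differences, which can depart from the CPM values. With no set term 1 member was called, Polr2e. Twistnb was at 22.3, 23.8 and 19.5 CPM in Δ/+ and 16.8, 16.9, 19.2 and 19.1 CPM in Δ/DN, lower without overlap (-0.41 ± 0.11, adjusted p = 0.0361). Polr3d was at 16.2, 16.2 and 17.2 CPM in Δ/+ and 13.4, 13.3, 16.5 and 14.4 CPM in Δ/DN, with overlap (-0.38 ± 0.11, adjusted p = 0.0423). Polr2e was higher in each Δ/DN library (16.1 to 21.6 CPM) than in each Δ/+ library (14.1 to 15.2), a log2 difference of 0.40 ± 0.11 (adjusted p = 0.0457). Polr3c was at 77.4 to 98.0 CPM in Δ/DN and 67.3 to 79.5 CPM in Δ/+, with overlap (0.38 ± 0.11, adjusted p = 0.0464).

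Twistnb, Polr3d and Polr3c were called in the same direction with and without LPS. These comparisons use largely the same cultures and share the set term. With no set term, or in set 2 alone, the calls of these genes with LPS were lost. The calls of Twistnb and Polr3c without LPS were lost there too. Polr1a, Polr1b and Polr3e, which differed without LPS, were at 0.16 ± 0.13, -0.17 ± 0.24 and 0.02 ± 0.10 with LPS and not called. No call with LPS held in every refit: 0 members were called without Δ/+ US 4, Δ/+ LPS 1, Δ/+ LPS 2 or Δ/DN LPS 2, and at most 3 without any other single library. The count was 1 without Δ/+ US 1, Δ/+ US 2, Δ/DN US 1, Δ/DN US 2, Δ/+ LPS 3 or Δ/DN LPS 4, and 2 without Δ/+ US 3. The 1795 calls over all genes moved too, to 1196 without Δ/+ US 4 and 312 without Δ/+ LPS 1. They were 90 without Δ/+ LPS 2 and 184 without Δ/DN LPS 2. Proliferation markers were higher in 8 of 16 cases and lower in 1 in Δ/DN LPS libraries, and their part was not tested.

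**Figure D4:**
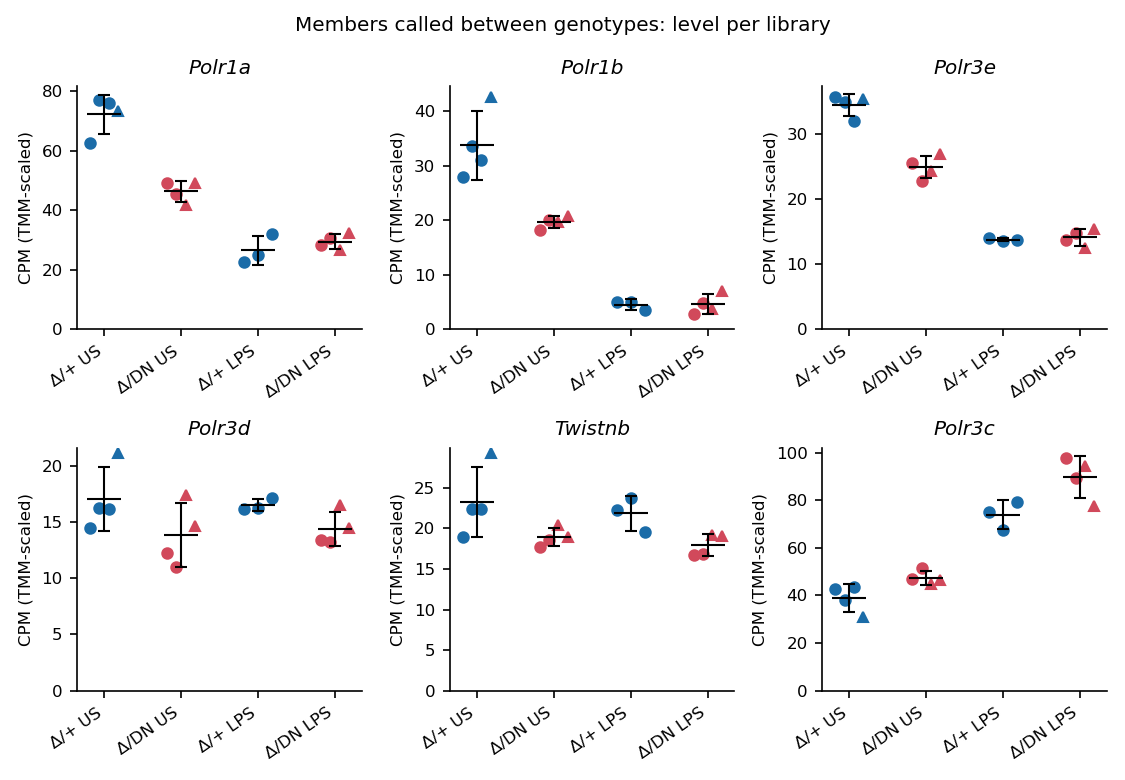
Level per library (y axis, TMM-scaled CPM) of 6 subunit genes called between genotypes, in the 4 groups (x axis), with circles for library set 2, triangles for set 3, blue for Δ/+ and red for Δ/DN, and the bar giving the mean ± SD. Polr1a, Polr1b and Polr3e separate by genotype in the unstimulated libraries and lie together with LPS, and Polr3c is higher with LPS in both genotypes.

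Whether LPS acted differently in the genotypes was tested as the difference between the LPS effects. The main edgeR model has no term for culture, so it leaves out the pairing of US and LPS libraries. By that model 0 of 31 members were called, where 0.00479% of all genes were, and 4 members had an unadjusted p under 0.05. With culture as a block 1 member and 156 of all genes were called. Polr1a had the smallest p, with its fall under LPS smaller in Δ/DN by 0.80 ± 0.17 on the log2 scale (95% interval 0.47 to 1.12, adjusted p = 0.203). The others were Polr2e (0.55 ± 0.15, adjusted p = 0.259), Polr3e (0.50 ± 0.12, adjusted p = 0.255) and Polr1b (0.68 ± 0.30, adjusted p = 0.532). Polr1a was called by DESeq2's Wald test (adjusted p = 0.0168), by edgeR with no filter on low counts (0.0218) and with culture as a replicate block (0.0174), while its adjusted p ranged from 0.0504 to 0.551 when 1 library was left out. DESeq2 called no other member. The LPS libraries of Polr1a overlapped between genotypes (22.5 to 32.0 and 26.7 to 32.2 CPM), and its US libraries did not.

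Genes that work with the polymerases were read from 7 lists. Without LPS, 3 of 7 initiation and termination factors of polymerase I were lower in Δ/DN, namely Taf1c (-0.44 ± 0.10) and Taf1a (-0.55 ± 0.15), of the promoter selectivity factor SL1, and Rrn3 (-0.33 ± 0.08), which bridges SL1 and the enzyme, with a median of -0.24; of all genes 5.45% were called lower and 5.01% higher. Of 17 factors of polymerase III only Bdp1, of the initiation factor TFIIIB, was called (-0.43 ± 0.07, adjusted p = 0.00441). Of 22 elongation factors of polymerase II 4 were lower, led by Ell2 (-0.80 ± 0.14), Ccnt1, the cyclin of P-TEFb (-0.39 ± 0.07), and Cdc73 of the PAF complex (-0.38 ± 0.08). Of 18 general initiation factors of polymerase II, Ercc2 was lower (-0.32 ± 0.09), of 4 mitochondrial transcription genes Tfb2m was lower (-0.38 ± 0.11), and 0 of 10 assembly factors were called. No gene of these lists was higher. With LPS the called genes between genotypes were Nelfe (0.57 ± 0.14), Ell2 (-0.60 ± 0.16) and Hexim1 (-0.49 ± 0.14), all elongation factors or their regulators, where 3.23% of all genes were called lower and 5.37% higher.

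Of 10 genes for assembly and nuclear import of the polymerases 7 fell and 0 rose in Δ/+, and 7 fell and 1 rose in Δ/DN, with medians of -0.64 and -0.65. Of all genes tested 25.3% were called lower and 22.4% higher in Δ/+, and 25.1% and 23.1% in Δ/DN, which is the background for the counts of this and the following lists. The AAA-type ATPases Ruvbl2 (-1.32 ± 0.15 in Δ/+ and -0.88 ± 0.14 in Δ/DN) and Ruvbl1 (-0.83 ± 0.11 and -0.65 ± 0.10), the chaperone partner Uri1 (-0.64 ± 0.09 and -0.64 ± 0.08) and the GTPases Gpn1 and Gpn3 (-0.84 ± 0.10 and -1.27 ± 0.18 in Δ/DN) were among them. Of 17 polymerase III factors 9 fell and 2 rose in Δ/+, and 10 fell and 2 rose in Δ/DN. Gtf3a, the 5S gene factor TFIIIA (-1.02 ± 0.12 and -0.93 ± 0.11), and Gtf3c4 of TFIIIC (-0.80 ± 0.09 and -0.70 ± 0.08) fell, and Bdp1 rose (0.54 ± 0.07 and 0.76 ± 0.06). Crcp, a polymerase III subunit that the symbol rule leaves out, was counted with these factors and fell in Δ/+ (-0.24 ± 0.09, adjusted p = 0.0484).

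Polymerase I factors split under LPS, with 2 higher and 2 lower of 7 in each genotype. Ubtf, which organises ribosomal gene chromatin, fell by 0.52 in Δ/+ and 0.50 in Δ/DN, Taf1a fell by 1.11 and 0.73, and Taf1b rose by 0.46 and 0.36. Of 22 elongation factors 7 rose and 4 fell in Δ/+, and 9 rose and 4 fell in Δ/DN, with Ell2 (1.77 ± 0.15 and 1.97 ± 0.14) and Aff1 (1.68 ± 0.10 and 1.48 ± 0.10), both of the super elongation complex, Tcea1, which rescues stalled polymerase (0.92 ± 0.12 and 0.73 ± 0.11), and Supt6 (0.41 ± 0.08 and 0.67 ± 0.08) higher. Of 18 initiation factors 4 rose and 5 fell in Δ/+, and 5 rose and 4 fell in Δ/DN. Gtf2b (TFIIB) rose by 1.56 and 1.25 and Gtf2f1 of TFIIF by 1.33 and 1.34, while Gtf2h2 of TFIIH fell by 1.28 and 0.91, and Gtf2a1 rose by 0.67 in Δ/DN. Polrmt, the mitochondrial RNA polymerase, fell by 0.73 and 0.77, Tfb2m fell by 0.71 and 0.58, and Tefm rose by 0.87 and 0.52.

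Of 8 polymerase III transcripts in the tables, among them 7SK, 7SL and RMRP RNA, 0 were called in any of the 5 comparisons. By edgeR 0 had an unadjusted p under 0.05 for LPS against US in either genotype. In each genotype comparison, and in the difference between the LPS effects, 1 did. Between genotypes 6 were higher and 2 lower in Δ/DN without LPS (median 0.10), and all 8 were lower with LPS (median -0.49). The difference between the LPS effects was below 0 for all 8 (median -0.74). All 8 were measured in the same libraries, so their directions are not independent. The 7SL share of reads ranged from 3.41 to 10.4% in Δ/DN US and from 1.61 to 4.03% in Δ/DN LPS libraries. With LPS the edgeR medians of the 8 were 0.46 in Δ/+ and -0.40 in Δ/DN, and the SE of the 7SL genes Rn7s1 and Rn7s2 was 0.37 to 0.42 within a genotype. Short RNAs are captured in part by this library type, and transfer RNA was not analysed here.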

How the data were processed

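Total RNA, depleted of ribosomal RNA, was sequenced from 15 libraries, and the authors deposited 1 table per library with a whole-number read count and a length for each gene. The builds mm39 and GRCm39 stand in the submitters' processing notes beside bedtools, featureCounts, HISAT2 2.2.1, edgeR, FastQC and Trimmomatic 0.33. Tool roles, settings and use of strand are not given in the sources used here. The deposited counts summed to 37256651 to 104041282 per library, which leaves out any reads not counted on a gene.

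The deposited counts were analysed in R 4.3.3 with edgeR 4.0.16 (limma 3.58.1): filterByExpr with a minimum count of 10, TMM factors, and the quasi-likelihood test (glmQLFit, glmQLFTest) on all 15 libraries, with a term per group and a term for library set. The 5 comparisons were adjusted by Benjamini-Hochberg over all 20865 genes. CPM and RPKM were computed from the counts. DESeq2 1.42.0, other scalings, other sample sets and a replicate block were alternatives; library totals without TMM and library set 3 alone were added after the values were seen. The test was checked on simulated counts.

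The members and lists were chosen with earlier results of these data known. Named with all library values were the catalytic subunits, Polr3g, Polr3gl and up to 2 called members per group and comparison with the smallest p; up to 3 called genes per list and comparison were named. Library names tie the US and LPS libraries of 7 cultures, whose deviations from group means correlated at r = 0.0643 to 0.428, each best with its own partner. The main model has no term for this pairing. Gene positions and exon overlaps were read from an annotation of GRCm38, not the build of the counts. Counts of 2 were commoner than counts of 1 in most tables, for which no source gives a reason. The values of 1 member are not reported here and not plotted, though it is included in the counts and medians.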

Additional observations from a re-analysis of the deposited data

Results flagged for a closer look

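Polr1d, a subunit shared by polymerases I and III, was at 50.1 CPM in the US library of Δ/DN culture 3, while the other 3 Δ/DN US libraries lay between 33.5 and 35.1 CPM. Polr2g, of the polymerase II stalk, was at 22.4 CPM in the LPS library of Δ/DN culture 2, below the other 3 at 25.2 to 25.7 CPM. Each of these libraries stood apart from the rest of its group by Dixon's test, which was run 93 times (31 genes in 3 groups of 4 libraries), and a 95% critical value is passed by chance in about 5% of groups. The group of 3 Δ/+ LPS libraries was not tested. Polr1d was not called between genotypes without LPS, and was called lower in Δ/DN when both libraries of Δ/DN culture 3 were left out (log2 difference -0.29).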

How the results depend on the processing

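Between genotypes without LPS, against 7 members called, 4 were called with no filter on low counts and 4 without Δ/DN cultures 3 and 4 (3 of the 7, plus Polr3gl), 3 with no library set term or in set 2 alone, and 2 with library totals. Of 4 called with LPS, 0 were called with no filter, 1 with no set term, in set 2 alone or without cultures 3 and 4, and 2 with DESeq2 size factors, without small structural RNAs or with library totals. With LPS in Δ/DN, 3 members were called in set 3 alone, which has fewer libraries, and 29 with library totals, against 19. The interaction count of 0 became 1 (Polr1a) by DESeq2, with no filter and with the replicate block. Where no value shows it, the cause was not tested. Leaving out 1 library gave 1 to 9 members without LPS and 0 to 3 with LPS between genotypes, 16 to 20 with LPS in Δ/+, 19 in Δ/DN and 0 for the interaction. Between genotypes the block was the replicate number, and it gave 9 members without and 6 with LPS. For LPS against US the block was culture, and it gave 19 members in each genotype. Same-numbered libraries of different genotypes correlated at -0.0885 to 0.146.

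Over all genes, the 2184 called between genotypes without LPS became 3389 by DESeq2, 1270 with no set term, 1271 in set 2 alone, 3705 without culture 3, 1417 without cultures 3 and 4, 3994 with the block and 1383 with library totals, and 174 to 3403 with 1 library left out. With LPS, 1795 became 2929, 2878 (without culture 3) and 3809 (block), and 90 to 2233 with 1 left out. In Δ/DN with LPS, 10052 became 1832 in set 3 alone. The 1 gene of the interaction became 117 by DESeq2, 34 with no filter, 4 in set 2 alone, 44 without culture 3, 9 without cultures 3 and 4, 156 with the block, 0 with library totals, and 0 to 15 with 1 library left out. Leaving out 1 library gave 8742 to 10176 genes with LPS in Δ/+ and 8955 to 10170 in Δ/DN.

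With library totals the sign of the LPS difference turned in Δ/+ for Polr1c (-0.42), Polr1d (-0.62), Polr2a (-0.64), Polr2b (-0.63), Polr2c (-0.12), Polr2g (-0.45), Polr2k (-0.41), Polr2m (-0.56), Polr3a (-0.29), Polr3b (-0.58) and Polr3d (-0.59), and in Δ/DN for Polr1c (-0.49), Polr2c (-0.17), Polr2g (-0.48), Polr2k (-0.50), Polr2m (-0.40), Polr3a (-0.25), Polr3b (-0.41) and Polr3d (-0.50), since that scaling moves the median of all genes.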
